A study of Homo sapiens with 6 samples.

Results

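The protein-coding genes of the heat shock protein and DNAJ families were described in H460, H1299, and A549 cells with and without knockdown of MALAT1, a nuclear lncRNA, by small interfering RNA (si-MALAT1). Members were taken by symbol, as every gene annotated as protein coding whose symbol starts with HSPA or HSPB and a digit, with HSP90A, or with DNAJA, DNAJB, or DNAJC and a digit, together with HSPD1, HSPE1, HSPH1, and HSP90B1. The rule used no measured value and gave 74 members of the 46427 genes of the table, 19672 of which were protein coding. By family there were 12 HSP70, 3 HSP110, 3 HSP90, and 8 small heat shock protein genes, the 2 subunits of the mitochondrial chaperonin, and 4 DNAJA, 13 DNAJB, and 29 DNAJC genes. By the main site of the protein, 39 were placed in the cytosol and nucleus, 14 in the endoplasmic reticulum (ER), and 8 in the mitochondrion, with the other members in vesicles and endosomes, in cilia, or unassigned. HSPB11, also listed as IFT25, was placed in cilia and is counted with the small heat shock proteins by its symbol only.

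HSP70 proteins bind exposed stretches of unfolded proteins and release them through cycles of ATP hydrolysis. DNAJ proteins, also called J-proteins, bring clients to HSP70 and start that hydrolysis, and HSP110 proteins exchange the nucleotide. HSP90 completes the folding of kinases and receptors, the mitochondrial chaperonin folds proteins in a closed cage, and small heat shock proteins hold misfolded proteins. The factor HSF1 drives many of the cytosolic and chaperonin genes after heat or proteotoxic stress, while the unfolded protein response drives those of the ER.

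Total RNA was sequenced from 6 libraries, with 3 established human NSCLC cell lines giving 1 control and 1 si-MALAT1 library each. H460, H1299, and A549 are human lung cancer lines that grow as adherent cultures. The labels call the control cells non-treated, whereas the methods describe negative and si-Control cells without naming which were sequenced, so that, if they were not transfected, transfection and loss of MALAT1 cannot be told apart. Each condition has 1 library in each line, and no replicate stands behind a difference within a line.

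The reads assigned to genes summed to between 42506818 and 68515992 per library. MALAT1 was lower in each si-MALAT1 library, at -2.32, -2.96, and -2.84 on the log2 scale for H460, H1299, and A549. The epithelial keratins KRT8 and KRT18 and the mesenchymal gene VIM were present in every library. KRT19 was abundant in H460 alone of the 3 cell lines. The epithelial gene CDH1 had 4693 and 7373 reads in A549 and at most 13 in a library of H460 or H1299. EPCAM had 196 and 485 in A549 and between 23 and 73 in the others. The leukocyte genes PTPRC and CD3E and the endothelial gene CDH5 had no reads. The leukocyte gene CD68 had between 624 and 4045 reads, and the endothelial gene PECAM1 at most 8. Of the fibroblast genes, PDGFRB had 837 and 708 in H460 and at most 61 elsewhere. COL1A1 had between 38 and 472, and COL1A2 at most 5. In bulk RNA, fewer expressing cells and less RNA per cell cannot be told apart.

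Of the 74 members, 60 had at least 1 read in every library, 11 had reads in some libraries, and DNAJA4, DNAJB3, and DNAJB7 had none. On the scale of TPM, which corrects the reads of a gene for transcript length and depth and is used here to compare levels between genes, 52 members reached 1 and 33 reached 10 in every library, and 13 stayed under 1 in every library. All members together made up between 0.392 and 0.494% of TPM. The 7 members with the highest mean level, HSPA8, HSPD1, HSP90AB1, HSP90B1, HSP90AA1, HSPE1, and HSPA9, held between 68.2 and 74.9% of the members' TPM.

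The cell lines divided their chaperone transcripts differently between the compartments. In H1299, members of the cytosol and nucleus held 69.8% of the members' TPM in the control and 71.0% after si-MALAT1, whereas they held 39.2 and 40.9% in H460 and 53.2 and 51.5% in A549. Mitochondrial members held 33.3 and 37.4% in H460, 26.7 and 28.6% in A549, and 15.2 and 12.3% in H1299. Members of the ER held 25.9% in the H460 control and 20.0% in the H460 si-MALAT1 library, and between 12.9 and 17.1% in the other 4 libraries. These shares are sums over few abundant genes, which are given next.

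HSPA8, the constitutive cytosolic HSP70, had the highest mean level of all members at 778 TPM. Its TPM was 494 and 487 in the H460 libraries, control first, 1170 and 1131 in the H1299 libraries, and 687 and 700 in the A549 libraries, an order of control and si-MALAT1 that is kept throughout. HSP90AB1, the constitutive cytosolic HSP90, lay between 439 and 648 TPM in the 6 libraries. HSP90AA1, the stress-responsive HSP90, had 216 and 160 TPM in H460, 594 and 593 in the H1299 pair, and 225 and 189 in the A549 pair, so that both H1299 libraries stood above the other 4.

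HSPD1, the large subunit of the mitochondrial chaperonin, had 865 and 833 TPM in H460, 359 and 277 in the H1299 pair, and 555 and 592 in the A549 pair. HSPE1, its small partner subunit, had 323 and 380 TPM in H460, 232 and 166 in the H1299 pair, and 364 and 398 in the A549 pair. Both H1299 libraries were therefore the lowest for both subunits, and the 2 genes lie head to head on chromosome 2, HSPD1 at chr2:197486584-197500274 on the minus strand and HSPE1 at chr2:197500379-197503449 on the plus strand (GRCh38). Exons of HSPE1 overlap those of the readthrough gene HSPE1-MOB4 on the same strand, and reads of the shared exons could be counted to either.

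HSPA5, the ER HSP70 also known as BiP, had 286 and 146 TPM in H460, against 69.2 and 101 in the H1299 pair and 62.4 and 73.2 in the A549 pair. HSP90B1, the HSP90 of the ER, had 664 and 462 TPM in H460, 367 and 360 in the H1299 pair, and 472 and 433 in the A549 pair. The H460 control was the highest library for both. Stress-inducible HSPA6 stayed under 1 TPM in every library, with between 12 and 85 reads.

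**Figure D1:**
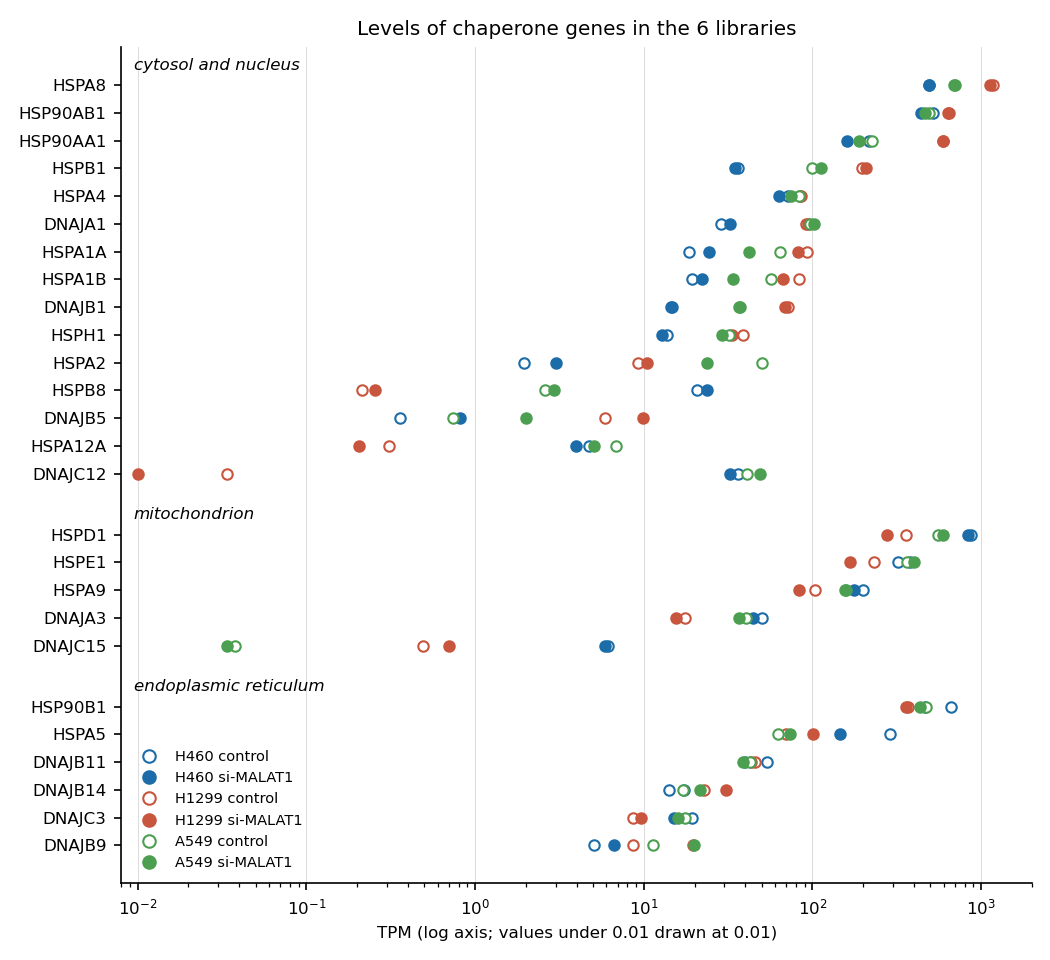
TPM of 26 members in the 6 libraries on a log axis, grouped by compartment, with open circles for control and filled circles for si-MALAT1 libraries and a colour per cell line. HSPA8, HSP90AA1, and HSPB1 are highest in H1299 (1170, 594, and 207 TPM at most), HSPD1 is lowest there, and DNAJC12 is near 0 in H1299 only.

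RefSeq promoter windows, from 250 bases before to 50 bases after the start of a gene on GRCh38.p14, were found for 66 members. Sequences of some members are printed here, and they do not stand for all members of a program. All but that of DNAJB9 show matches to the elements that HSF1 and the factors of the unfolded protein response are known to bind. A short heat shock element of 2 units, GAANNTTC or TTCNNGAA, lay in 14 of the 66 windows and in 13.7% of the 27305 windows of all genes. Of the members placed in the HSF1 program, 7 of 15 held one, as did 0 of 6 in the unfolded protein response program. Those of the HSF1 program without one were DNAJA4, DNAJB1, DNAJB4, HSPH1, HSP90AA1, HSP90AB1, HSPD1, and HSPE1. The longer element adds a further unit after another 2 unspecified bases, so that 3 units alternate. It contains the short one, and it lay in the windows of HSPA8, HSPA6, DNAJA1, and DNAJB6 and in 0.487% of all windows. Both strands were searched. In the stretches that follow, capitals mark the heat shock elements upstream of the start used for the window. The deposited annotation places HSPA8 at chr11:123057489-123062366, so by it the elements printed for HSPA8 lie within the gene. HSPA8 (chr11:123062164-123062381, minus strand) held 2 of the longer elements, HSPA1A (chr6:31815422-31815459) and HSPA1B (chr6:31827618-31827655) on the plus strand shared the same short element, and HSPB1 (chr7:76302476-76302513) and DNAJA1 (chr9:33025060-33025097), both on the plus strand, held 1 short element each upstream of the start. The window of DNAJA1 has 3 short elements in all, the others of which, with its longer one, lie after the start and are not printed.
HSPA8: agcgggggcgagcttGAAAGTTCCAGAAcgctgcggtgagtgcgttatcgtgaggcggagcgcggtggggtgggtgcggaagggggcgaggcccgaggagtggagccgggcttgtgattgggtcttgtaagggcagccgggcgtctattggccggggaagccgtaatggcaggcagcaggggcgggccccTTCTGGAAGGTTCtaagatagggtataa
HSPA1A: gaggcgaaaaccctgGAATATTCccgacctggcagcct
HSPA1B: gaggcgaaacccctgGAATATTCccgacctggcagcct
HSPB1: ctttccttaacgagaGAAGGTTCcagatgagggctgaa
DNAJA1: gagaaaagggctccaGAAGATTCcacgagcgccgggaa

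The ER stress response element, which is CCAAT followed after 9 unspecified bases by CCACG on either strand, lay in 22 of the 27305 windows, or 0.0806%, and the members among them were HSPA5 and HSP90B1. In the next 3 stretches, capitals mark this element in HSPA5 (chr9:125241376-125241424, minus strand) and HSP90B1 (chr12:103930201-103930354, plus strand, 1 copy on each strand), and the CCAAT box of DNAJB9 (chr7:108569828-108569862, plus strand). The CCAAT box is part of the ER stress response element, lay in 35.7% of all windows, and was in the windows of all 6 members of the unfolded protein response program. The window of DNAJB9 held the CCAAT box without the full element. These are matches of letters, and no binding was measured.
HSPA5: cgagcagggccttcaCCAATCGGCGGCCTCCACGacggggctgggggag
HSP90B1: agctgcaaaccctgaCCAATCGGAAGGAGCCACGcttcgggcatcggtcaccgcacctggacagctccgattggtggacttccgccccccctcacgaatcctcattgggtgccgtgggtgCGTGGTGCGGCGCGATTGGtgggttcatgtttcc
DNAJB9: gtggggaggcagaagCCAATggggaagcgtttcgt

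To ask which members differed between the cell lines, the control and si-MALAT1 libraries of a line were taken as its 2 libraries, with the treatment as a term in edgeR's quasi-likelihood test. These libraries are not repeat cultures of 1 condition. A gene was called at a Benjamini-Hochberg adjusted p under 0.05 over 19122 genes and a difference of at least 2-fold, and 65 members were tested. The 3 contrasts share libraries, so their values are given side by side. Values from here on are normalised read counts, which are RLE-scaled and compare libraries and not genes.

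Against H460, 15 members were higher in H1299, where 17.5% of all genes tested were, and 12 were lower, where 17.6% of all genes were. Of the 15 higher members, 11 were of the cytosol and nucleus and none was mitochondrial, and of the 12 lower members 5 were mitochondrial. The median log2 difference of H1299 from H460 was 0.40 over 32 members of the cytosol and nucleus, -0.39 over 14 of the ER, and -1.27 over 8 of the mitochondrion, beside 0.01 over all genes tested. A549 had 10 members higher than H460 (11.9% of all genes) and 5 lower (12.2%). Without the A549 control library, 3 were lower. Against H1299, A549 had 8 higher (15.7%) and 5 lower (15.5%). In any of the contrasts 31 of the 65 members were called, and 48.7% of all genes were.

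Members that HSF1 is known to drive made up 7 of the 11 members of the cytosol and nucleus that were higher in H1299 than in H460. Of the 14 such members tested, 7 were higher in H1299 and 3 were lower, beside 17.5 and 17.6% of all genes tested. HSPB1, the most abundant small heat shock protein gene, had 1514 and 1599 normalised reads in H460, 7023 and 7026 in the H1299 pair, and 3560 and 4027 in the A549 pair. The lines did not overlap, and the log2 difference of H1299 from H460 was 2.16 (SE 0.13, adjusted p = 8.02e-05). DNAJB1, the main J-protein induced by heat, had 1760 and 1956 in the H460 pair of libraries, 7318 and 6782 in the H1299 pair, and 3854 and 3792 in the A549 pair. It was higher by 1.91 on the log2 scale in H1299 than in H460 (SE 0.14, adjusted p = 0.000144). Reads of DNAJB1 and of TECR, a gene whose exons overlap it on the opposite strand, can be told apart only if counting used the strand, which is not given in the sources used here.

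HSPA1A and HSPA1B, the stress-inducible HSP70 pair on chromosome 6, were also higher in H1299. HSPA1A had 2386 and 3482 normalised reads in H460, 10211 and 8579 in the H1299 pair, and 7063 and 4668 in the A549 pair, a log2 difference between H1299 and H460 of 1.65 (SE 0.27, adjusted p = 0.00333). For HSPA1B the same difference was 1.48 (SE 0.25, adjusted p = 0.00395). Of all windows of 100 bases in the transcript of HSPA1A, 72.4% also occur in HSPA1B, so the split of reads between the pair is uncertain and they are not separate evidence. HSPH1, an HSP110 protein, had 3742 and 3806 in the H460 pair of libraries, 8885 and 7293 in the H1299 pair, and 7585 and 6903 in the A549 pair, and was 2.12-fold higher in H1299 than in H460. DNAJA1, a farnesylated J-protein of the cytosol, lay at 3577 and 4452 in H460, below all 4 other libraries, which were between 9561 and 11040.

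Of the 8 mitochondrial members, 5 were lower in H1299 than in H460, beside 17.6% of all genes tested. The other 3, DNAJC11, DNAJC19, and DNAJC30, were at 0.06, 0.11, and 0.83 on the log2 scale, where DNAJC30 had an edgeR adjusted p = 0.020 but stayed below the 2-fold difference. HSPD1 had 104671 and 110749 normalised reads in H460, 36902 and 27219 in the H1299 pair, and 57399 and 61690 in the A549 pair, and the log2 difference of H1299 from H460 was -1.77 (SE 0.18, adjusted p = 0.000504). HSPE1 differed by -1.17 (SE 0.23, adjusted p = 0.00695). HSPA9, the mitochondrial HSP70 that pulls proteins into the matrix, had 47568 and 45953 in H460 and 20948 and 16029 in H1299, a difference of -1.36 (SE 0.15, adjusted p = 0.000752). DNAJA3, its J-protein, had 7066 and 6912 in the H460 pair of libraries, 2096 and 1772 in the H1299 pair, and 4896 and 4464 in the A549 pair, a difference between H1299 and H460 of -1.87 (SE 0.13, adjusted p = 0.000141). The fifth called mitochondrial member was DNAJC15.

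DNAJC15, a J-protein of the mitochondrial inner membrane, had 2465 and 2599 normalised reads in H460, 169 and 227 in the H1299 pair, and 13.2 and 11.9 in the A549 pair. The 3 lines did not overlap, and H460 was 13.0-fold above H1299 and 202-fold above A549 (adjusted p = 3.79e-05 and 2.92e-05). DNAJC12, a cytosolic J-protein that binds aromatic amino acid hydroxylases, had 2131 and 2102 in H460 and 2030 and 2339 in A549, whereas in H1299 it had 2 reads in the control and 0 after si-MALAT1. A count of 0 allows up to 3 reads, so no fold change is given for it.

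HSPB8, a small heat shock protein that works with the co-chaperone BAG3, had 2066 and 2617 normalised reads in H460, 19.0 and 20.8 in the H1299 pair, and 224 and 254 in the A549 pair. It was 117-fold higher in H460 than in H1299 (adjusted p = 1.34e-05), in the direction opposite to HSPB1. HSPB6, another small heat shock protein, had 167 and 172 reads in H460 and at most 11 in any library of the other lines. HSPA12A, a distant HSP70 relative, had 1478 and 1362 in the H460 pair of libraries, 101 and 78.1 in the H1299 pair, and 1806 and 1369 in the A549 pair. HSPA2, an HSP70 known from the testis, had 292 and 494 in the H460 pair of libraries, 1171 and 1269 in the H1299 pair, and 6424 and 3038 in the A549 pair, the highest line.

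In the ER, HSPA5 was most abundant in H460. It had 60443 and 33937 normalised reads in H460, 12404 and 17312 in the H1299 pair, and 11266 and 13311 in the A549 pair. H460 was above both other lines in either library, with log2 differences of -1.67 for H1299 (SE 0.32, adjusted p = 0.00617) and -1.94 for A549 (SE 0.32, adjusted p = 0.00536). DNAJB9, a J-protein of the ER lumen also called ERdj4, was lowest in both H460 libraries, with 660 and 948, 952 and 2060 in the H1299 pair, and 1257 and 2211 in the A549 pair, and was higher by 1.07 on the log2 scale in A549 than in H460 (SE 0.18, adjusted p = 0.00572). DNAJB12, a J-protein of the ER membrane, was 4.86-fold higher in A549 and 3.54-fold higher in H1299 than in H460.

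**Figure D2:**
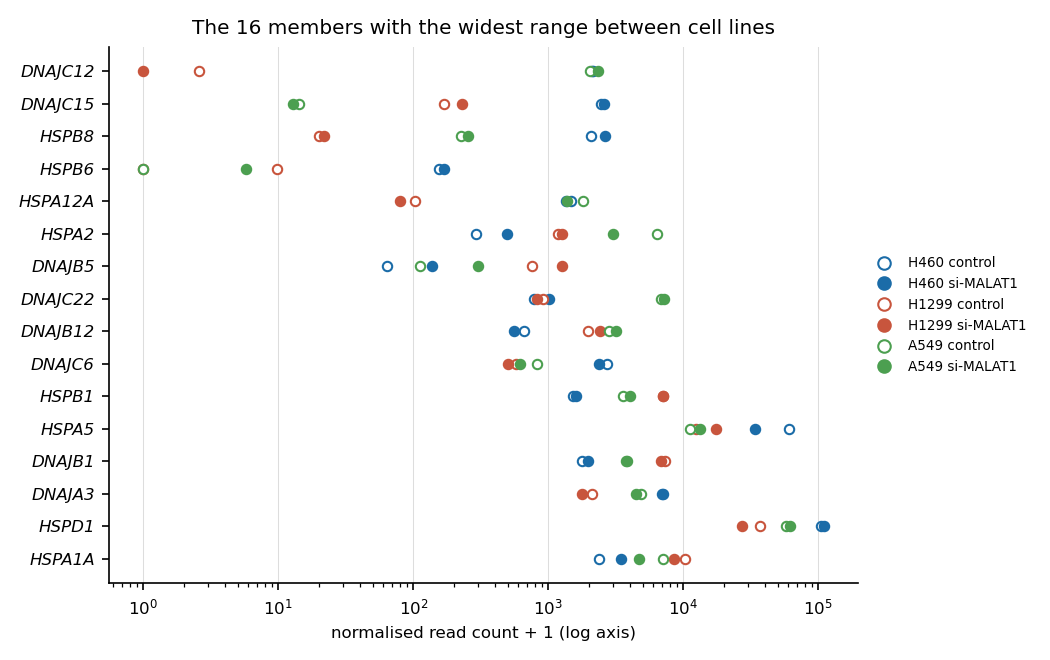
Normalised read counts plus 1, on a log axis, of the 16 members with the widest range between the line means, with open circles for control and filled circles for si-MALAT1 libraries. In most rows the 2 libraries of a line lie close together and apart from the other lines, as for HSPB8 (2066 and 2617 in H460, 19.0 and 20.8 in H1299).

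Over the 59 members with reads in every library and a mean count of at least 50, the range between the line means had a median of 0.89 on the log2 scale. The largest of the 3 changes with si-MALAT1 had a median size of 0.34. The range between lines was wider than that largest change for 49 of the 59, or 83.1%, beside 82.8% of all 14464 genes of that depth.

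Within each cell line, log2 fold changes were taken as si-MALAT1 minus control on the normalised read count plus 1, over the 17834 genes, 60 of them members, with a read in every library. A change of at least 1.5-fold was called, and intervals are exact 95% Clopper-Pearson intervals that cover counting error only. The median of the 60 members was 0.08 in H460, -0.03 in H1299, and -0.02 in A549, beside 0.02, 0.02, and 0.01 over all genes. Of all genes, 9253, 9256, and 9045 were above 0 in these lines. In H460, 6 members were higher (9.5% of all genes) and 1 was lower (10.3%). In H1299, 3 were higher (11.7%) and 0 were lower (11.4%). In A549, 3 were higher (11.5%) and 4 were lower (11.4%). Low counts pass such a threshold easily, and among genes with a mean count of at least 50 the shares higher and lower were 6.71 and 6.91% for H460, 9.8 and 8.97% for H1299, and 8.37 and 8.99% for A549. With log2(TPM + 1), 22 of the 60 members were above 0 in H460 in place of 35, and 1 was higher by 1.5-fold. On that scale the median over all genes in H460 also moved, from 0.02 to -0.07. At a mean count of at least 50, 5 and 1, 3 and 0, and 3 and 3 of 59 members were called.

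The compartments moved by small amounts and not alike in the 3 lines. In H460 the 14 ER members had a median log2 fold change of -0.23, with 10 below 0, while in H1299 the median was 0.11 with 11 above 0, and in A549 it was -0.01 with 8 below 0. The 8 mitochondrial members had medians of 0.02, -0.22, and 0.04 in H460, H1299, and A549. The 14 members of the HSF1 program had a median of 0.23 in H460, with 12 above 0, of -0.10 in H1299, with 10 below 0, and of 0.01 in A549. With log2(TPM + 1), 8 of these 14 were above 0 in H460, where the median over all genes was then -0.07. The 3 HSP90 genes were below 0 in each line, with medians of -0.30, -0.10, and -0.11, and stayed below 0 with TMM scaling and with TPM.

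**Figure D3:**
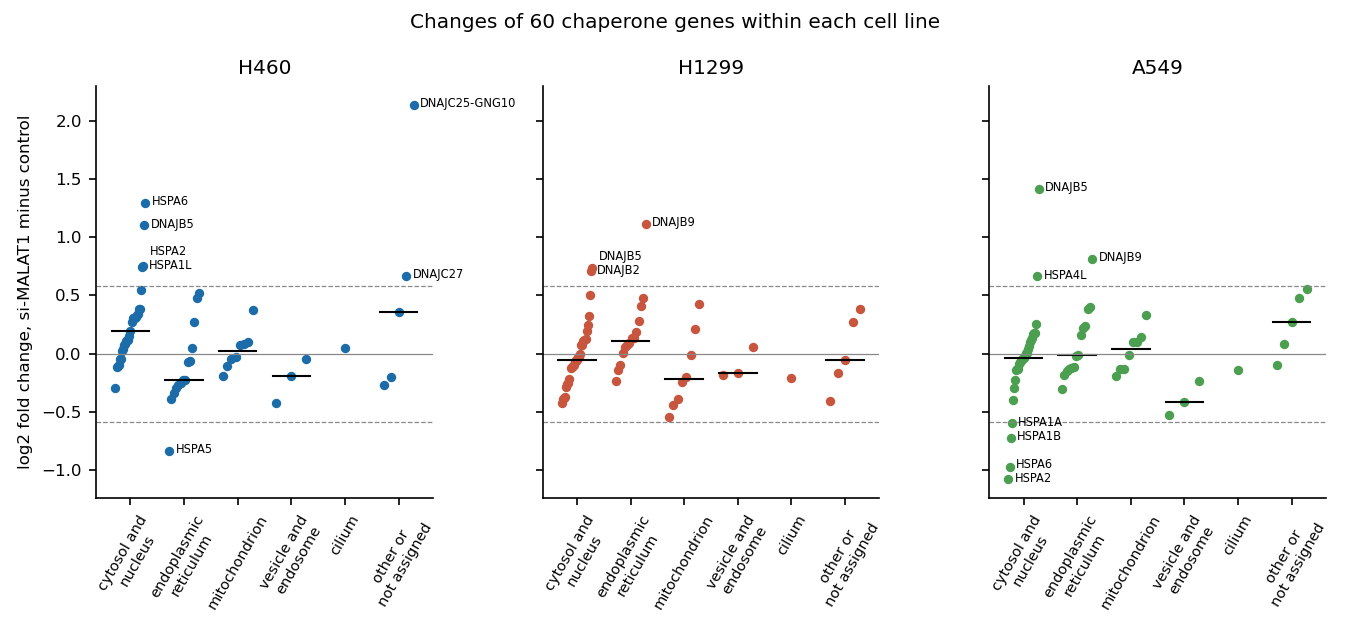
Log2 fold change (si-MALAT1 minus control) of the 60 members with a read in every library, by cell line and compartment. Each point is a member, black bars are medians, dashed lines mark a 1.5-fold change, and members past it are named, such as HSPA5 (-0.83) in H460 and DNAJB9 (1.11) in H1299.

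HSPA5 was the single member lower by 1.5-fold in H460, from 60443 to 33937 normalised reads, a log2 fold change of -0.83 (95% interval -0.85 to -0.81). In H1299 it was higher by 0.48 (0.45 to 0.51) and in A549 by 0.24 (0.20 to 0.28), below the threshold. HSP90B1 was lower in H460 by 0.39 and had values of -0.10 and -0.11 in H1299 and A549. Of the 6 members of the unfolded protein response program, 5 were below 0 in H460, where 8581 of all 17834 genes were. DNAJB9 alone was above 0. DNAJB11, an ER J-protein that binds client chains, had -0.30, -0.14, and -0.12, and DNAJC3, an ER J-protein that inhibits the kinase PERK, had -0.22, 0.09, and -0.13.

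DNAJB9 was higher after si-MALAT1 in each line, with 660 normalised reads becoming 948 in H460, 952 becoming 2060 in H1299, and 1257 becoming 2211 in A549. On the log2 scale it was higher by 0.52 (0.38 to 0.66), 1.11 (1.01 to 1.22), and 0.81 (0.70 to 0.93), so that H460 stayed under the 1.5-fold threshold. DNAJB9 and HSPA5 thus moved in opposite directions in H460 and in the same direction in H1299 and A549. DNAJB14, a J-protein of the ER membrane, went from 4297 to 5979, from 5668 to 7507, and from 4481 to 5862, with log2 fold changes of 0.48, 0.41, and 0.39.

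DNAJB5, a J-protein of the cytosol and nucleus, was the only 1 of the 60 members with a read in every library that was at least 1.5-fold higher in all 3 lines, where 1.19% of all genes were, and 0 of the 60 were lower in all 3, where 1.28% were. This filter leaves out members that drop to 0 reads, among them DNAJB13, which was lower in each line on at most 66 reads. For DNAJB5, normalised reads were 62.9 and 136 in H460, 755 and 1258 in the H1299 pair, and 112 and 300.1 in the A549 pair. On the log2 scale DNAJB5 was higher by 1.10 (0.68 to 1.55), 0.74 (0.62 to 0.86), and 1.42 (1.06 to 1.80). Without regard to size, 12 members were higher in all 3 lines, where 21.4% of all genes were, and 13 were lower, where 18.8% were.

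The inducible HSP70 genes differed in direction between the lines. HSPA1A was higher in H460, at 0.54 (0.47 to 0.62). It was lower by 0.25 in H1299 and by 0.60 in A549 (-0.66 to -0.54). HSPA1B was at 0.33, -0.39, and -0.73. HSPA2 was at 0.76 in H460 (0.55 to 0.97), 0.12 in H1299, and -1.08 in A549 (-1.15 to -1.01). HSPA6 had few reads, and its interval ran from 0.74 to 1.93 in H460 and from -2.17 to 0.06 in A549. Between these lines no such difference was tested, as each has 1 library per condition.

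In H1299 the mitochondrial chaperonin had the lowest values among the members with a read in every library and a mean count of at least 50. HSPE1 went from 5901 to 4046 normalised reads, a log2 fold change of -0.54 (-0.60 to -0.49), and HSPD1 from 36902 to 27219, a change of -0.44 (-0.46 to -0.42). In H460 they were at 0.37 and 0.08, and in A549 at 0.14 and 0.10. With log2(TPM + 1), HSPD1 was at -0.05 in H460, where the median over all genes was then -0.07. DNAJC9, a J-protein that also chaperones histones, was at 0.31, -0.43, and -0.06 in H460, H1299, and A549, and DNAJB2, a J-protein with ubiquitin-binding motifs, was at 0.08, 0.71, and -0.09. DNAJC13, an endosomal J-protein, was at -0.43, 0.06, and -0.23. The readthrough gene DNAJC25-GNG10 went from 16 to 70 reads in H460, and its exons overlap those of DNAJC25 and GNG10 on the same strand.

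**Figure D4:**
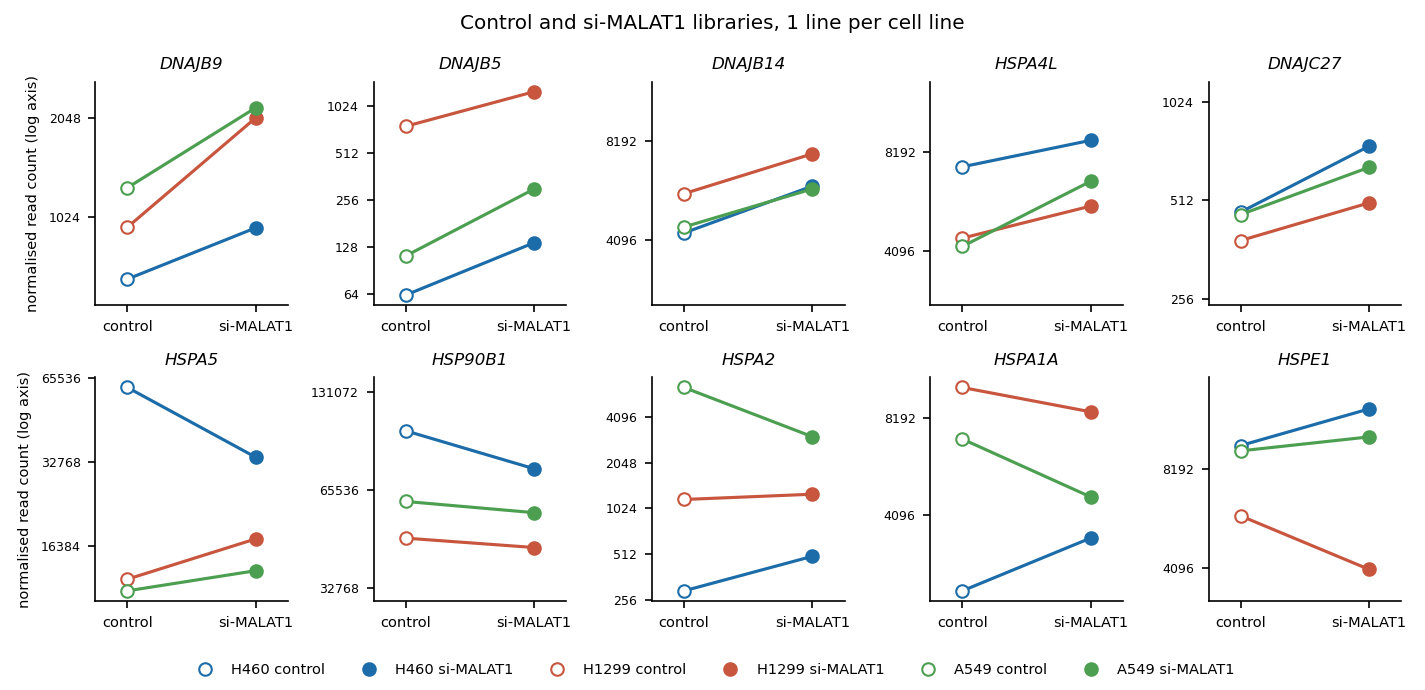
Normalised read counts (log axis, each panel with its own range) of 10 members in the control and si-MALAT1 libraries, with 1 line per cell line. DNAJB9, DNAJB5, DNAJB14, HSPA4L, and DNAJC27 are higher after si-MALAT1 in all 3 cell lines, whereas HSPA5 (-0.83, 0.48, and 0.24 on the log2 scale in H460, H1299, and A549) and HSPA2 differ in direction.

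Across the lines, the libraries of a line formed a pair in edgeR's quasi-likelihood test, which leaves 2 residual degrees of freedom. No member passed an adjusted p of 0.05 over all genes, where 0% of the 19122 genes were called higher and 0.00523% lower, the single gene being MALAT1 itself (adjusted p = 0.0381). At an unadjusted p under 0.05, 5 of 65 members were higher (7.38% of all genes) and 2 were lower (7.59%). In DESeq2's Wald test, which called 4.15% of 13561 genes higher and 4.25% lower, 4 of 58 members rose and 0 fell.

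The smallest p-values belonged to DNAJB9, with a paired log2 fold change of 0.80 (SE 0.147, edgeR adjusted p = 0.107, DESeq2 adjusted p = 5.04e-04), and DNAJB5, with 1.05 (SE 0.199, edgeR adjusted p = 0.109, DESeq2 adjusted p = 0.00131). Without the H460 pair, DNAJB9 passed edgeR's threshold as well (adjusted p = 0.0464). Over the alternatives run, the adjusted p of DNAJB9 and DNAJB5 was highest in edgeR without the pairing by cell line, at 0.999998 for each. With a cell line left out in turn, their edgeR adjusted p was at most 0.713. DNAJB14 followed with 0.41 (edgeR adjusted p = 0.173, DESeq2 adjusted p = 0.0036). HSPA4L, an HSP110 relative, had 7400 and 8920 normalised reads in H460, 4475 and 5611 in the H1299 pair, and 4222 and 6685 in the A549 pair, a change of 0.40 (edgeR adjusted p = 0.229, DESeq2 adjusted p = 0.0425). DNAJC27, which joins a J domain to a small GTPase, had 0.49 (edgeR adjusted p = 0.216, DESeq2 adjusted p = 0.0831). These 5 were chosen among members higher in 3 of 3 lines, so their shared direction was set by the choice.

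In the lower direction the smallest p-value was that of DNAJC14, a J-protein of the ER membrane, with normalised reads of 2783 and 2375 in the H460 pair of libraries, 4011 and 3416 in the H1299 pair, and 2930 and 2367 in the A549 pair (log2 fold change -0.27, edgeR adjusted p = 0.293, DESeq2 adjusted p = 0.177). The other member at an unadjusted p under 0.05 was DNAJB13, a J-protein of sperm and cilia, named after its values were seen because its mean count was 18, with 5 and 0, 11 and 0, and 66 and 26 reads in H460, H1299, and A549 (log2 fold change -2.54, SE 0.957, edgeR adjusted p = 0.300). Among members with a mean count of at least 50, HSPA12A came next with -0.31, then DNAJC6, an uncoating factor of clathrin vesicles also called auxilin, with -0.28, DNAJC5, the cysteine string protein of vesicles, with -0.26, and DNAJB11 with -0.20, at edgeR adjusted p between 0.341 and 0.43. Apart from DNAJB13, these members were chosen among those lower in 3 of 3 lines, so their shared direction was set by the choice. DNAJB13 was also lower in 3 of 3 lines.

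Other genes of the pathway were read from a list of 53, of which 50 were tested in the paired test. With edgeR 0 passed in either direction, and at an unadjusted p under 0.05, 3 of 50 were higher (7.38% of all genes) and 8 lower (7.59%). With DESeq2, where 4.15% of all genes were called higher and 4.25% lower, 2 of 49 rose and 2 fell. Here the HSP90 co-chaperone FKBP5 (edgeR log2 fold change 0.44, DESeq2 adjusted p = 0.014) and the collagen chaperone SERPINH1 (0.35, DESeq2 adjusted p = 0.021) rose. GRPEL2, a nucleotide exchange factor of mitochondrial HSP70 (-0.49, DESeq2 adjusted p = 0.033), and STIP1, which hands clients from HSP70 to HSP90 (-0.34, DESeq2 adjusted p = 0.049), fell. The 8 subunits of the cytosolic chaperonin were below 0 in H1299, with a median of -0.30, and in A549, with a median of -0.23. Of all 17834 genes, 8578 and 8789 were below 0 in these lines. In H460, 6 of 8 subunits were above 0, beside 9253 of all genes, and with TPM 1 of 8 was. With TPM the H460 median was -0.09 over these subunits and -0.07 over all genes. HSF1 itself was at -0.17, 0.19, and -0.33 in H460, H1299, and A549, and HYOU1, an ER relative of HSP110, at -0.52, -0.01, and 0.03. TRAP1, the mitochondrial HSP90, was at -0.03, -0.55, and -0.14.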

How the data were processed

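Members and gene lists were chosen with earlier results of these data known. Per the methods, the authors aligned trimmed reads with HISAT2 2.1.0 on hg38 with annotation from UCSC and quantified genes with StringTie (1.3.4b in the submitters' processing notes, another version in the methods). The deposited annotation carries RefSeq transcripts. The deposited read counts are whole numbers per gene, not normalized, and the deposited TPM correct for length and library size. Gene positions came from the deposited annotation. By it, exons of 11 members overlap another gene on the same strand, among them HSPA4L and DNAJC15. Those of 17 members overlap a gene on the opposite strand, among them DNAJC14. Reads of shared exons could be counted to either gene, on opposite strands only if counting ignored the strand. A further 18 columns of another study's samples were not used. Here, counts were scaled with RLE factors, 1 was added, and log2 fold changes were taken within lines. Tests across libraries used edgeR 4.0.16 (quasi-likelihood, TMM, filterByExpr, cell line and treatment as terms) with Benjamini-Hochberg adjustment over all genes, and DESeq2 1.42.0 as the alternative. The pairing comes from the cell line. The fits were run on simulated data with a fixed spread and treatment changes alike in each line. That run checks the code and not how the tests perform on these libraries. Analyses used R 4.3.3 and Python 3.11.15. Named members are, at a mean count of at least 50, those changed 1.5-fold one way in 3 lines, the 5 per direction with the smallest paired p among those moving one way in 3 lines, the 3 per line and direction with the largest change, and the 5 with the widest range between lines, and a fixed set of central chaperones. Other members are named where their values were called. P-values measure the spread between these libraries, which labels do not tie to repeat cultures.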

Additional observations from a re-analysis of the deposited data

Results flagged for a closer look

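Among members with a mean count of at least 50, HSPA2 was singled out because it was past the 1.5-fold threshold in opposite directions in 2 cell lines, at a log2 fold change of 0.76 in H460 and -1.08 in A549. With 1 library per cell line and condition the difference between the lines was not tested. HSPA6, with a mean count under 50, was past the threshold in the same opposite directions, and its 95% counting interval ran from 0.74 to 1.93 in H460 and from -2.17 to 0.06 in A549.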

How the results depend on the processing

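Across the 3 lines, DESeq2 in place of edgeR gave 4 members higher in place of 0, and 563 genes higher and 577 lower in place of 0 and 1. Without the filter on low counts, and without the replicate block, 0 genes were lower. Leaving out each cell line in turn gave 0 to 1 members higher, 0 to 51 genes higher, and 0 to 112 genes lower. Within lines, a threshold of 2-fold left 3 members higher and 0 lower in H460, 1 higher in H1299, and 1 higher and 1 lower in A549, and log2(TPM + 1) left 1 higher in H460. Between lines, leaving out each library gave 3 to 5 members lower in A549 than in H460, the 3 without the A549 control, and the lone library of a line was then assumed to vary like the others. No called value turned its direction under the alternatives run. Of the main counts recomputed, 101 stayed within 1.5 times the value given and 17 moved. Of the other values recomputed, 474 stayed the same, 67 moved, 5 were stronger, and 4 were weaker. The cause of these differences was not tested. Depth limits the members with under 100 reads in some libraries. These include DNAJB5 (68 reads in the H460 control and 85 in the A549 control), DNAJC15 (10 in each A549 library), HSPB8 (24 in each H1299 library), HSPA12A (90 in the H1299 si-MALAT1 library), HSPA1L, HSPA6, HSPB6, DNAJB13, DNAJC12, and DNAJC25-GNG10.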
